A study of Mus musculus with 8 samples.

Results

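The data describe the Ms4a gene cluster on mouse chromosome 19, and within it 8 genes: Ms4a1, Ms4a2, Ms4a3, Ms4a4c, Ms4a6b, Ms4a6c, Ms4a6d and Ms4a7. A region of open chromatin was counted to the cluster where 1 of these 8 was its nearest RefSeq protein-coding gene within 50 kb, which gave 16 of 61196 regions. Ms4a4c and Ms4a6c had 3 regions each, Ms4a1, Ms4a2, Ms4a3 and Ms4a6d had 2 each, and Ms4a6b and Ms4a7 had 1 each. Regions are numbered within each gene along mm10. The 21 Ms4a genes of the RefSeq table lie between positions 10962289 and 11640851, a stretch of 678.6 kb, and the other 13 of them served for comparison.

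Chromatin accessibility was measured by ATAC-seq, in which the Tn5 transposase inserts sequencing adapters into open DNA, in mouse bone marrow (BM) progenitor cells. The 4 groups carry the names GMP-MoP, proNeu2, proNeu1 and cMoP, with 2 libraries each made from 5000 sorted cells. By the series title, the question is whether GMP-MoP chromatin is shifted towards a route that leads to these cells from proNeu1. For no group do the sources used here state a genotype, strain, age, treatment or sort gate. The labels number the libraries as biological replicates but name no animals. The p-values therefore reflect how far these libraries differ, some of which may be technical.

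MS4A proteins cross the cell membrane several times and sit at the surface or in inner membranes, where some act as parts of larger receptors. Ms4a1 encodes CD20, a surface protein of B cells, and Ms4a2 encodes the beta chain of the high-affinity IgE receptor of mast cells and basophils. Ms4a3 is transcribed in granulocyte-monocyte progenitors, and its locus is used in mice to mark cells that descend from them. Ms4a7 is known from tissue macrophages, Ms4a4c is among the genes that interferon induces in mouse cells, and Ms4a6b, Ms4a6c and Ms4a6d are closely related copies found in several leukocyte types.

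RefSeq promoter windows, from 250 bases before a start site to 50 after it on GRCm38.p6 (mm10), were matched for 6 of the 8 genes (7 windows). The windows of 4 genes are shown. The most accessible region of the 16 covers that of Ms4a3. Regions cover those of Ms4a6c and Ms4a6b, which share sequence, and no region covers that of Ms4a2. The Ms4a4c window and the Ms4a7 window at chr19:11334646-11334945 also had no region over them and are not shown. Nor is the other Ms4a7 window, which a region covers. Each window shown is written 5′ to 3′ on the gene's own strand, and capitals mark matches on either strand. The letters searched were GAGGAAGT for PU.1 with its core AGGAAG, TTGCGCAA for C/EBP with its looser form TTNNGNAA, TGTGGT for RUNX factors, TGANTCA for AP-1 factors, AGATAA for GATA factors, and the interferon-response motif by its usual repeat. The E-box CANNTG was searched too but not capitalised.
Ms4a3, chr19:11640802-11641101, minus strand: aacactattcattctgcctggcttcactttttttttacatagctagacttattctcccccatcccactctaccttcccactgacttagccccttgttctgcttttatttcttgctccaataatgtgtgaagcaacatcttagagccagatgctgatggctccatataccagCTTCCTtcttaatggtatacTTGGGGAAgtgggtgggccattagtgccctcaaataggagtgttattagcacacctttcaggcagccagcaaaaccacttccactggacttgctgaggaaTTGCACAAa
Ms4a6c, chr19:11469118-11469417, plus strand: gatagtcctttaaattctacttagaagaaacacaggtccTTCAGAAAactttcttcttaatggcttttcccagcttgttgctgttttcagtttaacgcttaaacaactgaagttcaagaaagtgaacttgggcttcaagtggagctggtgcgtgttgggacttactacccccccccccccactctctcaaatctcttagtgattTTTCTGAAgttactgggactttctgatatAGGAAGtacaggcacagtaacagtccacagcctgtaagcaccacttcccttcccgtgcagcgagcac
Ms4a6b, chr19:11518309-11518608, plus strand: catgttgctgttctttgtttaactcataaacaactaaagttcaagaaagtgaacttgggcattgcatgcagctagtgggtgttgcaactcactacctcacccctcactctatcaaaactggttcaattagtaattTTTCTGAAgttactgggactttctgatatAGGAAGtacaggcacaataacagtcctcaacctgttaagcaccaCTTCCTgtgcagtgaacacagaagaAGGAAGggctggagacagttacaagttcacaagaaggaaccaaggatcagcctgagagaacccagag
Ms4a2, chr19:11623670-11623969, minus strand: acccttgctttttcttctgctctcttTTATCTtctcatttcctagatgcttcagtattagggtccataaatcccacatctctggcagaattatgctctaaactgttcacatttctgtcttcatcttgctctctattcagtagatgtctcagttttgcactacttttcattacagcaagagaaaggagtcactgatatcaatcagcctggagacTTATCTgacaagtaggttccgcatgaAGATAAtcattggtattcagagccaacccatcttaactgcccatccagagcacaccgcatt

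The Ms4a3 window held AGGAAG on the opposite strand 79 bases before the start site, and TTNNGNAA 59 bases before it and again 42 bases into the transcript. AGGAAG occurred in 35.4% and TTNNGNAA in 40.7% of all 32851 RefSeq windows of the same length, so both are common. The longer GAGGAAGT (3.20% of windows) and TTGCGCAA (0.183%) were not among the Ms4a3 letters. The Ms4a2 window held AGATAA 3 times, at 224, 37 and 11 bases before the start site; 11.2% of all windows held it at least once and 0.107% held it 3 times or more. CANNTG, in 72.3% of all windows, occurred once in the Ms4a3 window, 105 bases before the start site, and in the Ms4a6c window at 147 and 115 bases before it. A match is a description of letters and not a bound site. The Ms4a6c and Ms4a6b windows shared an identical run of 48 bases, which holds an AGGAAG and a TTNNGNAA match in both genes, while every other pair of the 7 windows shared at most 12 bases in a row. A read that lies wholly within such a run could be placed on either gene. The effect of this on the counts over these 2 start sites was not tested.

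The libraries held 1388525 to 1907810 counts over all regions, so that 3 counts stand for 1.58 to 2.18 CPM, the counts of a region divided by TMM-adjusted library totals. The labels were read against marker genes through the regions linked to them. The summed level of neutrophil progenitor markers was 232 to 238 CPM in GMP-MoP, 581 to 613 in proNeu2, 457 to 511 in proNeu1 and 173 to 185 in cMoP. The summed level of monocyte progenitor markers was 278 to 320 CPM in GMP-MoP, 207 to 225 in proNeu2, 221 to 224 in proNeu1 and 318 to 348 in cMoP. Within the monocyte list the members differed: Csf1r, Irf8, Klf4 and Irf5 were higher in every GMP-MoP and cMoP library than in any proNeu library. Cx3cr1 ran the other way, with 26.1 to 31.2 CPM in GMP-MoP, 43.8 to 51.1 in proNeu2, 41.8 to 47.5 in proNeu1 and 27.4 to 32.3 in cMoP. Ly6c2 was lowest in cMoP, at 30.1 to 34.4 CPM. In the neutrophil list the GMP-MoP sum lay between proNeu1 and cMoP. In sorted pools such as these, fewer cells with an open site and less opening per cell cannot be told apart.

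Of the 16 member regions, 8 passed the filter on low counts and were tested; they belong to Ms4a1, Ms4a2, Ms4a3, Ms4a4c, Ms4a6c and Ms4a7. The filter asked for 5.98 CPM on unadjusted library totals in at least 2 libraries. Ms4a1 region 1 reached that in cMoP alone and Ms4a2 region 1 in proNeu2 alone, so each was admitted through the group where it was high, and the counts of calls are a description of the regions that passed. A call is a Benjamini-Hochberg adjusted p under 0.05 in edgeR's quasi-likelihood test over all 47506 tested regions. Between GMP-MoP and cMoP none of the 8 was called, where 5.45% of all tested regions were (1.98% higher, 3.47% lower); 1 had an unadjusted p under 0.05, and DESeq2 called none of the 8 and 0.0779% of all. Between GMP-MoP and proNeu1, 1 was lower and none higher in GMP-MoP (24.1% of all tested regions called). Between GMP-MoP and proNeu2, 2 were higher and 2 lower (39.2% called). In proNeu1, 1 was higher and 2 were lower than in cMoP (42.4% called, 20.6% higher and 21.9% lower), and in proNeu2 the same counts were found against cMoP (52.6% called, 25.2% higher and 27.4% lower). Between proNeu2 and proNeu1 none of the 8 was called (0.0758% of all), 2 had an unadjusted p under 0.05 and DESeq2 called none (1 of all 47506). The median log2 fold change of the 8 was -0.53 in GMP-MoP over cMoP, against -0.02 over all tested regions. With so few members these shares are not set apart from the background. GMP-MoP and cMoP are each used in several of these comparisons, so they share libraries.

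**Figure D1:**
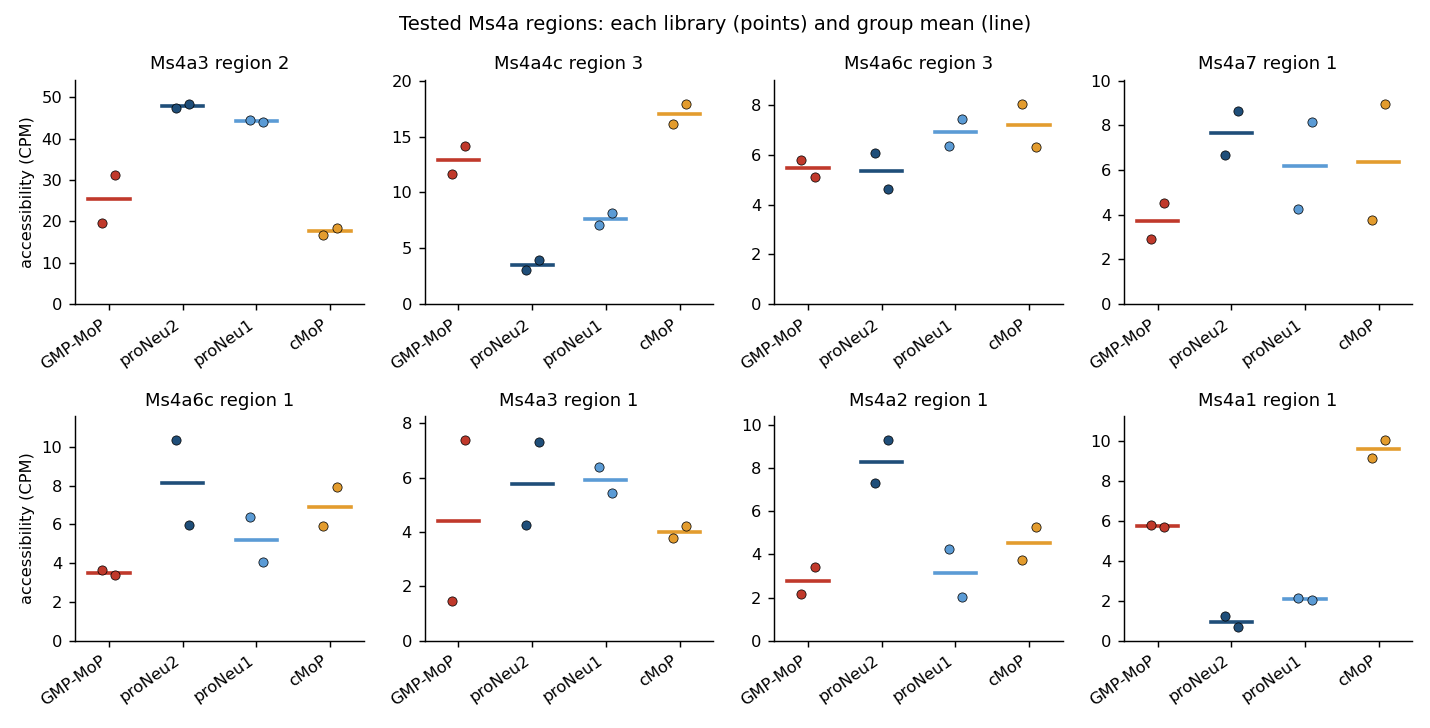
Accessibility in CPM (vertical axes, each from 0) of the 8 tested member regions, ordered by mean level, with 1 point per library and a line at the mean of each group's 2 libraries. Ms4a3 region 2 is high in proNeu2 and proNeu1, whereas Ms4a4c region 3 and Ms4a1 region 1 are high in GMP-MoP and cMoP.

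Ms4a3 carried the most accessible of the 16 regions, and that region was higher in both proNeu groups than in GMP-MoP and cMoP. Region 2 (chr19:11640387-11641409, 1023 bp) covers the Ms4a3 start site. It had 19.6 and 31.2 CPM in GMP-MoP, 47.4 and 48.5 in proNeu2, 44.6 and 44.1 in proNeu1, and 16.7 and 18.5 in cMoP. All 4 proNeu libraries lay above all GMP-MoP libraries, which in turn lay above both cMoP libraries. Per length its mean over the 8 libraries was 33.1 CPM per kb, at the 90.0th percentile of all 61196 regions, and the next member, Ms4a4c region 3, had 9.79 CPM per kb at the 50.8th percentile.

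In the fit, Ms4a3 region 2 was higher in proNeu2 than in cMoP by a log2 fold change of 1.44 (SE 0.23, adjusted p = 8.55e-09) and higher in proNeu1 than in cMoP by 1.33 (SE 0.23, adjusted p = 4.20e-07). Both calls held under all 18 alternative settings. In GMP-MoP it was lower than in proNeu2, with a log2 fold change of -0.88 (SE 0.22, adjusted p = 0.000465), which also held under all 18. Against proNeu1 its log2 fold change in GMP-MoP was -0.77 (SE 0.22, adjusted p = 0.00575). That call ended without GMP-MoP replicate 1 (adjusted p = 0.128) and in DESeq2 (adjusted p = 0.153), and the alternatives ran from 0.00368 to 0.153. The GMP-MoP libraries stood 8.18 CPM (SD) around their mean of 25.4, against 1.28 around 17.6 in cMoP, and the 2 groups differed by a log2 fold change of 0.56 (SE 0.26), which missed the threshold (adjusted p = 0.202). Between proNeu2 and proNeu1 the log2 difference was 0.11 (SE 0.20, adjusted p = 0.911). The order of the neutrophil marker sums across the 4 groups was the same as that of this region; their part in it was not tested.

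Ms4a3 region 1 (chr19:11635528-11636051) lies in the gene body and had far fewer counts. It gave 1.45 and 7.37 CPM in GMP-MoP, 4.26 and 7.30 in proNeu2, 6.37 and 5.43 in proNeu1, and 3.76 and 4.22 in cMoP. The GMP-MoP libraries spanned the values of all other groups, and none of the 6 comparisons passed the threshold, though proNeu2 against cMoP did with loess offsets (adjusted p = 0.0470). Its log2 differences from cMoP were 0.25 in GMP-MoP, 0.51 in proNeu2 and 0.55 in proNeu1, the last 2 of smaller size than at the start site.

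A pair of regions showed the opposite direction. Ms4a1 region 1 (chr19:11244154-11244860) lies outside any gene, 4819 bp from the Ms4a1 interval. It had 5.81 and 5.67 CPM in GMP-MoP, 1.22 and 0.664 in proNeu2, 2.12 and 2.03 in proNeu1, and 9.14 and 10.03 in cMoP. The 4 groups did not overlap, with cMoP highest, GMP-MoP next and proNeu2 lowest. The counts behind these levels are small: 18 over both GMP-MoP libraries, 3 in proNeu2, 6 in proNeu1 and 36 in cMoP. The log2 difference between proNeu2 and proNeu1 was -1.07 (SE 1.00) and was not called.

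Scaled to library size, cMoP exceeded proNeu2 at Ms4a1 region 1 by a ratio of 10.1 (95% exact interval 3.18 to 51.1), and GMP-MoP exceeded proNeu2 by 6.02 (1.76 to 31.9). Such intervals, like the 3-count floor, cover counting error only. The region was tested only because of its 2 cMoP libraries, which bears on every comparison with cMoP. The difference between proNeu2 and cMoP had an adjusted p of 1.64e-05 and held under all 17 alternatives that tested it. In proNeu1 the region was lower than in cMoP by a log2 fold change of -2.16 (SE 0.59, adjusted p = 0.00124), which ended in DESeq2 (adjusted p = 0.0558) and with loess offsets (0.0507); the lowest of 17 alternatives was 0.000449. Between GMP-MoP and proNeu2 the adjusted p was 0.00654, and the call ended in DESeq2 (0.0870) and without proNeu2 replicate 2 (0.0663), the lowest of 16 alternatives being 0.00390. GMP-MoP had a log2 fold change of 1.43 over proNeu1 (SE 0.68, adjusted p = 0.108) and of -0.73 over cMoP (SE 0.45, adjusted p = 0.406).

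Ms4a4c region 3 (chr19:11431152-11432199) lies 3906 bp downstream of Ms4a4c. It had 11.6 and 14.2 CPM in GMP-MoP, 3.04 and 3.98 in proNeu2, 7.08 and 8.14 in proNeu1, and 16.1 and 17.9 in cMoP. The order of the groups was that of Ms4a1 region 1, and again no 2 groups overlapped. It was higher in GMP-MoP than in proNeu2 by a log2 fold change of 1.88 (SE 0.46, adjusted p = 0.000434) and lower in proNeu2 than in cMoP by -2.26 (SE 0.42, adjusted p = 1.26e-06), both under all 18 alternatives. In proNeu1 it was lower than in cMoP by -1.15 (SE 0.36, adjusted p = 0.00557). That call ended in DESeq2 (adjusted p = 0.104), without cMoP replicate 2 (0.0523) and without proNeu1 replicate 1 (0.0674), in a range from 0.00265 to 0.104. The log2 differences of 0.77 between GMP-MoP and proNeu1 (SE 0.39, adjusted p = 0.143), -0.39 between GMP-MoP and cMoP (SE 0.31, adjusted p = 0.567) and -1.11 between proNeu2 and proNeu1 (SE 0.53, adjusted p = 0.495) missed the threshold.

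These regions are linked to CD20 and to an interferon-induced gene, and the B cell list was read beside them. The B cell markers, of which 7 of 9 have a region, summed to 85.0 to 92.2 CPM in GMP-MoP, 90.0 to 94.9 in proNeu2, 72.9 to 78.7 in proNeu1 and 76.5 to 76.9 in cMoP. The sum mixes markers of different direction. Igll1, a chain of the receptor of B cell precursors, was its largest member, with 34.9 to 37.4 CPM in GMP-MoP, 48.6 to 53.1 in proNeu2, 34.0 to 40.02 in proNeu1 and 26.9 to 28.5 in cMoP. Cd22, a surface receptor of B cells, was higher in every GMP-MoP and cMoP library than in any proNeu library, as both Ms4a regions were. It had 10.9 to 12.5 CPM in GMP-MoP, 1.82 to 3.98 in proNeu2, 2.12 to 4.07 in proNeu1 and 9.14 to 12.7 in cMoP. Ebf1, a regulator of B cell genes, was highest in GMP-MoP, at 13.6 to 18.2 CPM. The part of the B cell markers in these regions was not tested. The monocyte marker sum was higher in all GMP-MoP and cMoP libraries than in any proNeu library, as were both regions; its part in them was not tested.

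The remaining tested regions, of the Ms4a6c and Ms4a7 genes, gave no call. Ms4a6c region 1 (chr19:11469160-11469852) covers the start site whose window is printed above. It had 3.63 and 3.40 CPM in GMP-MoP, 10.3 and 5.97 in proNeu2, 6.37 and 4.07 in proNeu1, and 5.91 and 7.92 in cMoP. Both GMP-MoP libraries lay below all 6 others. Its log2 fold change in GMP-MoP was -1.22 over proNeu2 (SE 0.52, adjusted p = 0.0518), which passed the threshold under 6 of 16 alternatives, with adjusted p from 0.0144 to 0.434, and -0.97 over cMoP (SE 0.53, adjusted p = 0.318).

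Ms4a6c region 3 (chr19:11484279-11485879) lies in the gene body and passed the threshold in none of the 6 comparisons. It had 5.81 and 5.102 CPM in GMP-MoP, 6.08 and 4.65 in proNeu2, 6.37 and 7.46 in proNeu1, and 8.06 and 6.33 in cMoP. Its log2 fold changes in the 6 comparisons lay between -0.41 and 0.01. Ms4a7 region 1 (chr19:11335827-11336466) covers the Ms4a7 start site and had 2.90 and 4.54 CPM in GMP-MoP, 6.69 and 8.63 in proNeu2, 4.25 and 8.14 in proNeu1, and 3.76 and 8.97 in cMoP. The 2 cMoP libraries differed more from each other than the highest and lowest group means did. The log2 fold change of -0.98 in GMP-MoP over proNeu2 (SE 0.52) had an adjusted p of 0.124, and with loess offsets of 0.0421.

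Ms4a2, the receptor chain gene, had its highest summed level in proNeu2, which its region 1 carried. Region 1 (chr19:11611365-11612007) lies 3510 bp downstream of the gene. It had 2.18 and 3.40 CPM in GMP-MoP, 7.30 and 9.29 in proNeu2, 4.25 and 2.03 in proNeu1, and 3.76 and 5.28 in cMoP. Both proNeu2 libraries lay above all others, and GMP-MoP and proNeu1 overlapped. The region passed the filter through these 2 proNeu2 libraries alone, so the comparisons with proNeu2 rest on a region admitted where it was high. GMP-MoP was lower than proNeu2 by a log2 fold change of -1.504 (SE 0.57, adjusted p = 0.0260), a call that held under 10 of 17 alternatives. It ended in DESeq2 (adjusted p = 0.200), with total counts (0.0510) and without GMP-MoP replicate 1 (0.111), GMP-MoP replicate 2 (0.0697), proNeu2 replicate 1 (0.0564) or proNeu2 replicate 2 (0.152), and its lowest value was 0.00125. The log2 difference of 1.38 between proNeu2 and proNeu1 (SE 0.57) had an adjusted p of 0.408. The log2 difference of 0.86 between proNeu2 and cMoP (SE 0.49) had an adjusted p of 0.133, and with loess offsets of 0.000870.

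No region covered the Ms4a2 start site with its 3 AGATAA matches. Mast cell and basophil markers, 7 of 9 with a region, summed to 76.0 to 86.4 CPM in GMP-MoP, 80.9 to 90.9 in proNeu2, 87.1 to 90.2 in proNeu1 and 64.4 to 71.5 in cMoP. Fcer1a, which encodes the IgE-binding chain that Ms4a2 accompanies, reached at most 2.43 CPM in its only region. The 6 genes that work with the Ms4a2 chain in IgE signalling (Fcer1a, Fcer1g, Syk, Lyn, Btk and Lat) had 33 tested regions. In proNeu2, 5 of the 33 were higher and 6 lower than in cMoP (25.2% and 27.4% of all tested regions), with a median log2 fold change of -0.04 against -0.02 over all tested regions. Syk, a kinase of the receptor complex, had a region at 22.9 CPM in proNeu2 and 5.87 in cMoP (log2 fold change 1.95, SE 0.35). Lat, an adaptor protein, had one at 15.7 CPM in proNeu2 and 7.73 in cMoP (1.03, SE 0.35). Lyn, the kinase that acts on the receptor chains, had a region with 0 counts in both proNeu2 libraries and 39 counts over both cMoP libraries, which against a floor of 3 counts over the proNeu2 group is at least 10.9-fold lower in proNeu2 (adjusted p = 1.40e-08). Btk, a kinase further along, had one at 3.48 CPM in proNeu2 and 14.1 in cMoP (-1.99, SE 0.44). In GMP-MoP 1 of the 33, at Lat, was higher than in cMoP (edgeR adjusted p = 0.0148), near the 1.98% higher over all tested regions. DESeq2 called none of the 33 in that comparison (0.0779% of all).

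**Figure D2:**
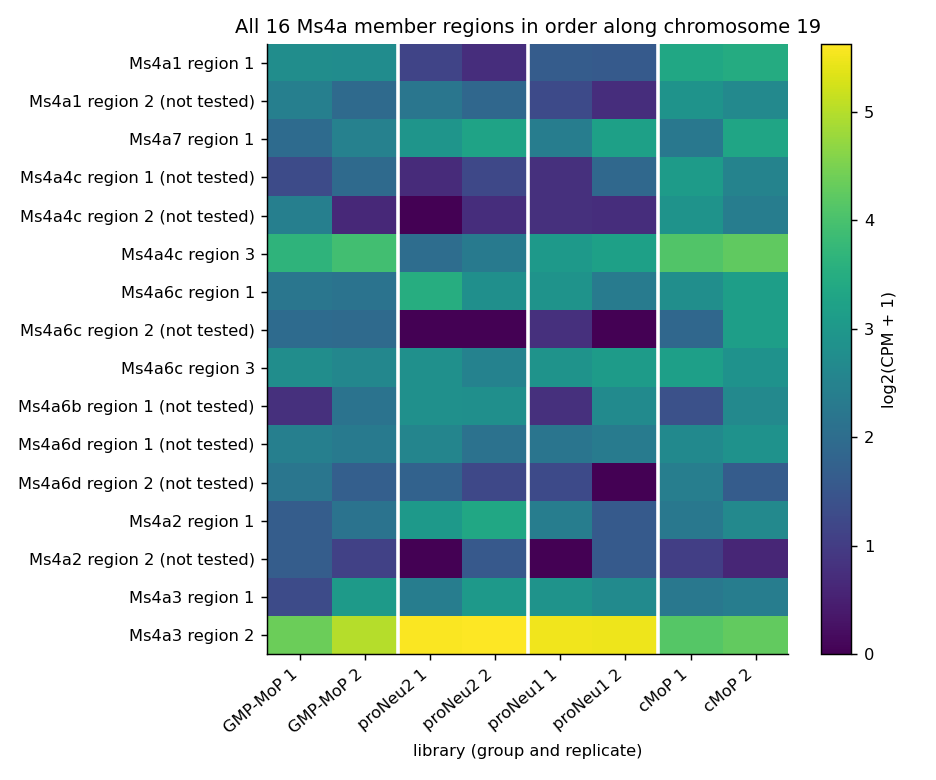
Accessibility of all 16 member regions (rows, in order along chromosome 19) in the 8 libraries (columns), as colour on a log2(CPM + 1) scale. Ms4a3 region 2 is the brightest row in every library, and the row of Ms4a4c region 1 is brightest in the cMoP columns.

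The 8 untested regions held 0 to 15 counts per library, at most 7.92 CPM. Among them, Ms4a6b region 1 (chr19:11518271-11518984), the only region of that gene, covers its start site and had 0.726 and 3.40 CPM in GMP-MoP, 6.08 and 5.97 in proNeu2, 0.708 and 5.43 in proNeu1, and 1.61 and 5.28 in cMoP. In every group but proNeu2 the libraries differed several fold. Ms4a6d region 1 (chr19:11601880-11602593), the higher of that gene's 2 regions, lies in the gene body. It had 4.36 and 3.97 CPM in GMP-MoP, 4.86 and 3.319 in proNeu2, 3.54 and 4.07 in proNeu1, and 5.38 and 6.33 in cMoP, so both cMoP libraries lay above the other 6. Ms4a6c region 2 (chr19:11478530-11479583) had 4 and 5 counts in GMP-MoP, none in either proNeu2 library, 1 and 0 in proNeu1, and 5 and 15 in cMoP. Against a floor of 3 counts over the proNeu2 group, it was at least 3.01-fold higher in GMP-MoP than in proNeu2 and at least 5.59-fold lower in proNeu2 than in cMoP. Ms4a4c regions 1 and 2 had the same direction. Region 1 held 3 counts in proNeu2 and 23 in cMoP (ratio of cMoP over proNeu2 6.43, 95% exact interval 1.94 to 33.5), and region 2 held 1 and 20 (16.8, 2.68 to 696).

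With no filter on low counts, 61187 regions including all 16 members were tested. In proNeu2, 1 member was higher and 5 were lower than in cMoP (47.6% of all called), and in proNeu1, 1 was higher and 6 were lower (38.3%). In GMP-MoP, 3 were higher and 3 lower than in proNeu2 (32.3%), 1 was lower than in proNeu1 (18.9%), and edgeR called none against cMoP (4.28%). The added calls fell on Ms4a1 region 2, Ms4a4c regions 1 and 2, Ms4a6c region 2 and Ms4a6c region 1. Over the 16 regions the group mean was highest in cMoP in 9, and GMP-MoP lay between proNeu1 and cMoP in 10 and below every other group in 4. Of the 8 regions that passed the filter, cMoP was highest in 3 and GMP-MoP lay between in 4. The other 6 of the 10 were regions of low count. The same shares over all regions were not worked out, so these orders have no background beside them.

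Counts were also summed over all regions of a gene, which let 7 of the 8 genes be tested among 14834. Ms4a6b was left out for low counts. Summed CPM of a gene uses library totals over all regions, with TMM factors from the gene counts, so its scale differs from region CPM. Ms4a7, with 1 region, had 6.69 region CPM and 6.08 summed CPM in proNeu2 replicate 1. Levels and fold changes of regions and of gene sums are therefore not directly comparable. Ms4a3 had 20.8 and 39.9 summed CPM in GMP-MoP, 47.0 and 50.9 in proNeu2, 47.0 and 45.8 in proNeu1, and 20.1 and 23.4 in cMoP. Ms4a4c had 17.2 and 18.2 in GMP-MoP, 3.319 and 5.45 in proNeu2, 7.84 and 10.7 in proNeu1, and 29.7 and 27.8 in cMoP. Ms4a1 had 10.04 and 8.80 in GMP-MoP, 4.43 and 3.03 in proNeu2, 3.27 and 2.51 in proNeu1, and 15.4 and 15.8 in cMoP. For Ms4a4c and Ms4a1 both GMP-MoP libraries lay between cMoP and all proNeu libraries, while for Ms4a3 the first GMP-MoP library fell within the cMoP range.

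In proNeu2, Ms4a3 was higher than in cMoP (log2 fold change 1.17, SE 0.22, adjusted p = 8.75e-06), and Ms4a4c (-2.71, SE 0.34, adjusted p = 2.05e-09) and Ms4a1 (-2.03, SE 0.41, adjusted p = 3.45e-05) were lower, where 54.5% of all genes were called. In proNeu1, Ms4a3 was higher (1.09, SE 0.22) and Ms4a4c (-1.62, SE 0.30), Ms4a1 (-2.40, SE 0.45), Ms4a6c and Ms4a6d were lower than in cMoP (41.4% of all genes). The calls of Ms4a3, Ms4a4c and Ms4a1 against cMoP held under all 18 alternatives in both groups. The Ms4a6c and Ms4a6d calls were the weakest. Ms4a6c (log2 fold change -0.76, SE 0.31, adjusted p = 0.0431) passed under 11 of 18 alternatives, with adjusted p up to 0.324, reached without cMoP replicate 2. Ms4a6d (-1.12, SE 0.46, adjusted p = 0.0474) passed under 3 of 17, with adjusted p up to 0.279, and its levels were 7.89 and 6.46 summed CPM in GMP-MoP, 6.64 and 4.24 in proNeu2, 4.57 and 3.77 in proNeu1, and 9.54 and 8.71 in cMoP.

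In GMP-MoP, summed Ms4a1 (log2 fold change 1.68, SE 0.51, adjusted p = 0.0110) and Ms4a4c (0.93, SE 0.34, adjusted p = 0.0318) were higher than in proNeu1 and Ms4a3 was lower (-0.57, SE 0.21, adjusted p = 0.0371), where 28.5% of all genes were called. DESeq2 called none of the 3, and adjusted p over the alternatives reached 0.109 for Ms4a1, 0.204 for Ms4a4c and 0.494 for Ms4a3. The Ms4a3 difference was -0.22 without GMP-MoP replicate 1. Against proNeu2, Ms4a1 (1.30, SE 0.47, adjusted p = 0.0200) and Ms4a4c (2.01, SE 0.39, adjusted p = 3.15e-05) were higher and Ms4a3 (-0.65, SE 0.21, adjusted p = 0.00890) was lower (46.9% of all genes). Of these, Ms4a4c held under all 18 alternatives; the Ms4a1 adjusted p reached 0.155 with loess offsets and that of Ms4a3 reached 0.270 without GMP-MoP replicate 1, where its log2 fold change was -0.31.

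Between GMP-MoP and cMoP, edgeR called none of the 7 genes (3.11% of all genes called). The unadjusted p was under 0.05 for 4, and DESeq2 called none of the 7 and 0.0809% of all genes. Their log2 fold changes were 0.52 for Ms4a3 (SE 0.24, adjusted p = 0.276; -0.07 without GMP-MoP replicate 2), -0.69 for Ms4a4c (SE 0.26, adjusted p = 0.137), -0.71 for Ms4a6c (SE 0.31, adjusted p = 0.231) and -0.73 for Ms4a1 (SE 0.34, adjusted p = 0.282). The median over the 7 genes was -0.69. Between proNeu2 and proNeu1 edgeR called none of the 7 (0.344% of all genes), and DESeq2 called none (0.00674% of all genes). In edgeR 2 genes, Ms4a2 and Ms4a4c, had an unadjusted p under 0.05.

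**Figure D3:**
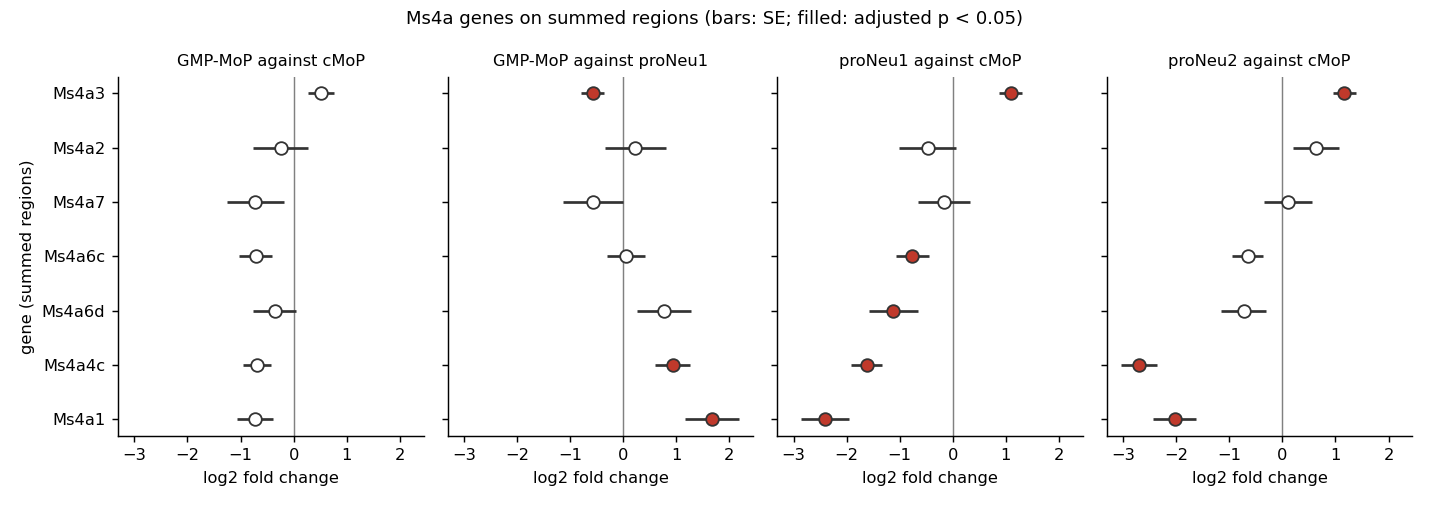
Log2 fold change (horizontal axes, first group over second) of the 7 tested genes on summed regions in 4 comparisons, with bars of 1 SE and filled points for an adjusted p under 0.05. Ms4a3 lies opposite to Ms4a4c and Ms4a1 in every panel, and no point is filled between GMP-MoP and cMoP.

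Along the chromosome the called regions of the whole Ms4a interval were split into runs of 1 direction, a new run starting at each change of sign. Any order of calls gives such runs, and no expected number of runs was worked out. The pattern was noticed after the values were known and is given as a description. The interval holds 35 regions, of which 21 were tested. In proNeu2 against cMoP, the first run was 4 higher regions over 86.8 kb, linked to Ms4a15 and Ms4a8a. The next 7 called regions were all lower. They reach from Ms4a1 region 1 to Ms4a4d region 3 over 316.1 kb with 10 tested regions. In that stretch Ms4a7 region 1 and Ms4a6c region 1 (log2 fold change 0.25 each) and Ms4a6c region 3 (-0.41) were not called. Of the 7 lower regions, Ms4a1 region 1 was admitted by the filter through cMoP alone. The same holds for Gm8369 region 2, with 21 and 15 counts in cMoP and at most 9 in any other library. The last call was the higher Ms4a3 region 2. In proNeu1 against cMoP the runs were 2 higher, 5 lower and 1 higher. In GMP-MoP against proNeu2 they were 4 lower, 5 higher and 2 lower, the last 2 being Ms4a2 region 1 and Ms4a3 region 2. Of these, Ms4a2 region 1 was admitted by the filter through proNeu2 alone. GMP-MoP against proNeu1 had only 2 calls, both lower, at Ms4a8a region 2 and Ms4a3 region 2. Over all tested regions 52.6% were called in proNeu2 against cMoP and 42.4% in proNeu1 against cMoP. For GMP-MoP the shares were 39.2% against proNeu2 and 24.1% against proNeu1. These comparisons share libraries and so are not separate evidence of the pattern.

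**Figure D4:**
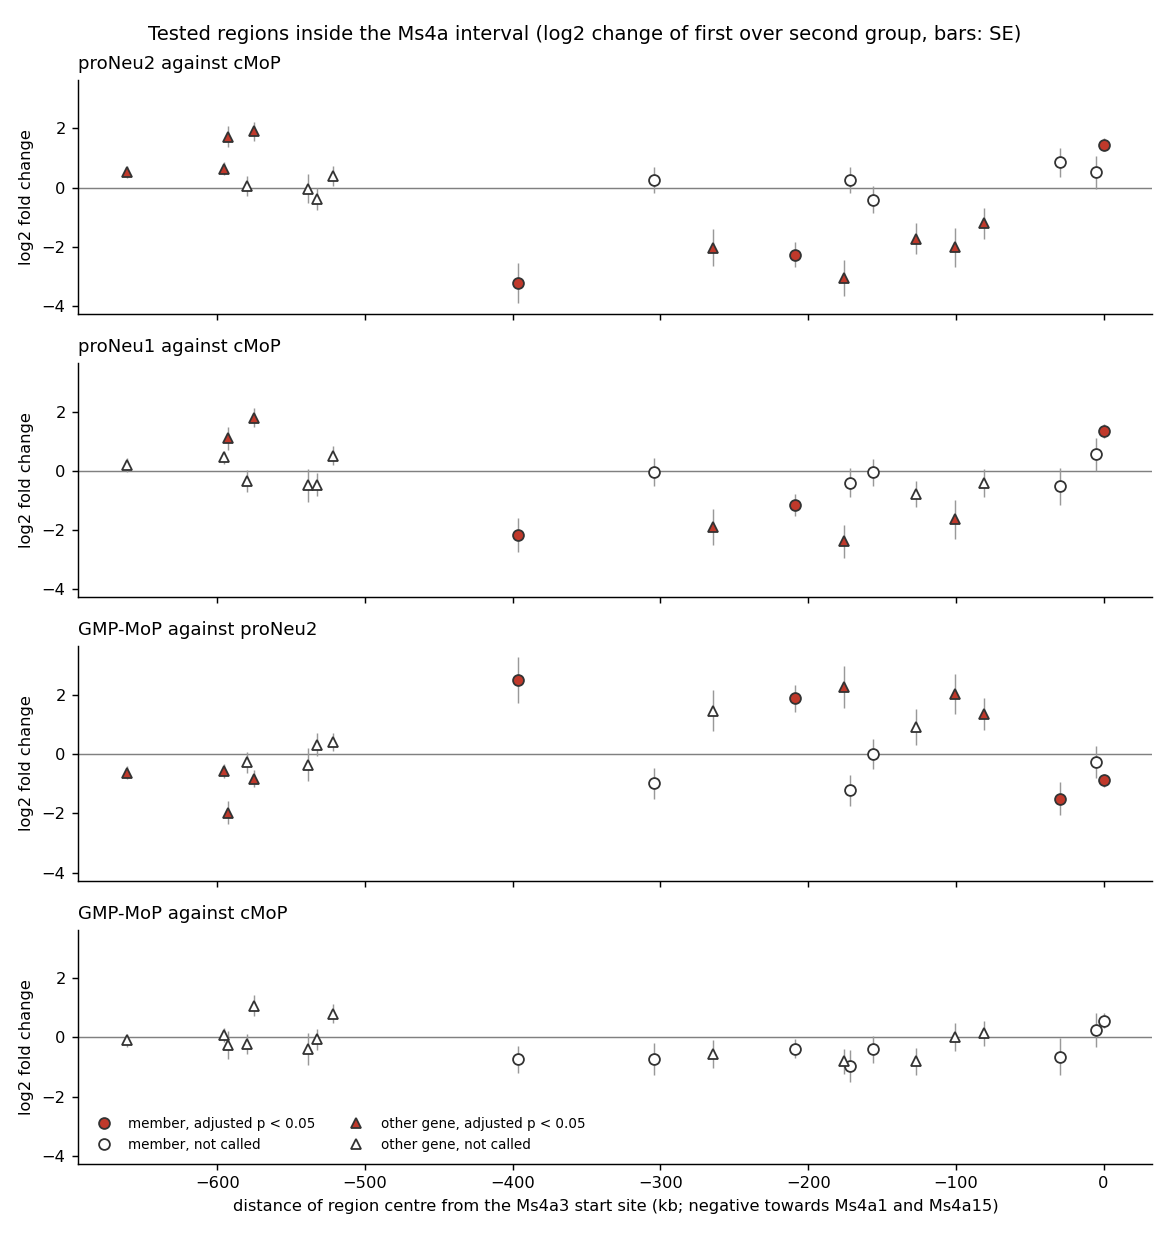
Log2 fold change with SE (vertical axes, first group over second) of the 21 tested regions inside the Ms4a interval, against distance from the Ms4a3 start site in kb, in 4 comparisons. Circles are member regions, triangles are regions of other genes, and filled symbols passed an adjusted p of 0.05; in proNeu2 against cMoP, filled symbols are above 0 at both ends and below 0 in between.

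Of the 13 other Ms4a genes, 8 had a region, with 13 regions tested. In proNeu2, 4 of the 13 regions were higher and 4 lower than in cMoP (52.6% of all tested regions called), and in proNeu1, 2 were higher and 3 lower (42.4% called), so both shares are near those of all regions. Ms4a8a region 4 averaged 26.2 CPM in proNeu2, 24.2 in proNeu1 and 6.93 in cMoP, and its log2 fold changes over cMoP were 1.90 and 1.80 (SE 0.32 and 0.33). Ms4a4b, a gene of T cells that lies beside Ms4a4c, had a region at 1.27 CPM in proNeu2, 2.05 in proNeu1 and 11.2 in cMoP (log2 fold changes over cMoP of -3.06 and -2.39, SE 0.61 and 0.56). Between GMP-MoP and cMoP edgeR called none of the 13, with an unadjusted p under 0.05 for 2, and DESeq2 called none (0.0779% of all). The 40 protein-coding neighbours within 500 kb on either side had 45 tested regions. In proNeu2, 14 of the 45 were higher and 12 lower than in cMoP, with a median log2 fold change of 0.05, against 25.2% higher and 27.4% lower over all tested regions.

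Ms4a3 was also set beside 9 genes of progenitors and primary granules (Mpo, Elane, Prtn3, Ctsg, Prss57, Cst7, Ctsc, Srgn and Nkg7), which had 27 tested regions. In proNeu2, 12 of the 27 were higher and 6 lower than in cMoP (25.2% and 27.4% of all tested regions), and in proNeu1, 11 were higher and 5 lower (20.6% and 21.9%). GMP-MoP had 6 regions above cMoP and none below it (1.98% and 3.47% over all tested regions); the median log2 fold change was 0.37, and DESeq2 called 1 (0.0779% of all). The 2 with the largest change in GMP-MoP were at Ctsc, which encodes the protease that activates granule enzymes (9.38 CPM in GMP-MoP against 1.06 in cMoP, log2 fold change 3.07, SE 0.62), and at Nkg7, a granule membrane gene (38.2 CPM in GMP-MoP against 9.86 in cMoP, 1.95, SE 0.27). At 10 regulators of myeloid genes (Spi1, Cebpa, Cebpb, Cebpe, Irf8, Gfi1, Runx1, Klf4, Zeb2 and Id2), proNeu2 exceeded cMoP in 24 of 65 tested regions and fell below it in 18 (25.2% and 27.4% of all). GMP-MoP exceeded cMoP in 4 of the 65 and fell below it in 2 (1.98% and 3.47% of all), and DESeq2 called none of the 65 (0.0779% of all).

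The genes whose most accessible region followed a member's most closely over the 8 libraries were found by Pearson r of log2 CPM among 14662 genes, with no p. For Ms4a1 region 1 these were Csf1r (r = 0.998), Magi2 (0.996) and Klk15 (0.994), and Csf1r encodes the receptor for the growth factor of monocytes and macrophages. For Ms4a3 region 2 they were Spatc1 (0.988), Pkd1l1 (0.986) and Heatr5b (0.986), and for Ms4a4c region 3 Cfap221 (0.993), Gprin3 (0.992) and Ftdc1 (0.991). The 8 points of each r fall into 4 groups and share library depth, and with 14662 genes searched high values are found for any region. The closest gene for Ms4a2 region 1 was Rnf187 (0.977), for Ms4a6c region 3 Crot (0.949) and for Ms4a7 region 1 Vps13b (0.948).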

How the data were processed

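Whole-number counts per region in 8 ATAC-seq files were deposited by the authors and taken as raw counts. Per the submitters' processing notes, the authors' tools included edgeR 3.32.1, HOMER 4.11 and Bowtie2 2.3.5.1, with mm10 as build. Tn5 shifting, duplicate filters and whether regions came from pooled samples are not given in the sources. Regions were linked to the nearest of 21896 RefSeq protein-coding genes within 50 kb, and nearness is not proof of regulation. The test was edgeR 4.0.16 (R 4.3.3) quasi-likelihood, robust, with TMM factors, filterByExpr (minimum count 10), all 8 libraries and a mean for each group, and Benjamini-Hochberg adjustment over all regions or all genes. Region library sizes were taken after the filter, and gene sums used library totals over all regions with TMM factors from the gene counts. SE is the log2 fold change over the square root of F. The procedure was tested on simulated data. The 2 proNeu2 libraries differed least (chi-square per degree of freedom 1.03, p = 0.00011) and were kept as 2 samples. A group at 0 was given a floor of 3 counts over the group. Alternatives were DESeq2 1.42.0, other scalings, filters, sample sets and links, a replicate block and leaving out each library. All 8 genes are named; each gene's highest region and each called region has its libraries' values, listed genes are named at most 2 a direction, and likeness is by the 3 highest r. Members and lists were chosen with earlier results of these data known. Promoter sequences are RefSeq's (GRCm38.p6).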

Additional observations from a re-analysis of the deposited data

How the results depend on the processing

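Of 1527 values of single regions or genes under alternatives, 1444 stayed on the same side of the threshold, 68 lost a call and 15 gained one. In 49 the sign changed, and in none of these was the value called in the main test or the alternative. DESeq2, with or without independent filtering, called 0 member regions between GMP-MoP and proNeu1 (1 in edgeR), 2 between GMP-MoP and proNeu2 (4) and 1 between proNeu1 and cMoP (3). On summed genes it called 0 (3 in edgeR), 1 (3) and 3 (5) in the same comparisons. Over all tested regions it called 4.49%, 15% and 19.5% there without independent filtering, where edgeR called 24.1%, 39.2% and 42.4%. Over all genes it called 10%, 26.4% and 22.2%, where edgeR called 28.5%, 46.9% and 41.4%. Loess offsets gave 5 member regions between proNeu2 and cMoP, 3 higher and 2 lower in proNeu2 (22354 of all 47506 called). On summed genes they gave 1 gene between GMP-MoP and proNeu1 and 3 between proNeu1 and cMoP. Total counts also gave 3 genes between proNeu1 and cMoP. Loess offsets turned the median log2 change of the 8 tested members in proNeu1 over cMoP to 0.25, against -0.23, and total counts moved the median of all tested regions by at most 0.15. Without a filter 7 regions were called between proNeu1 and cMoP (38.3% of all) and 6 between proNeu2 and cMoP (47.6% of all). A minimum count of 20 left 2 between GMP-MoP and proNeu2 (13341 of all 29081 called). Summing the proNeu2 libraries left 1 sample in that group and lowered the filter, so that 52707 regions were tested. Its counts of calls are therefore not set beside the main counts. Taking regions with any member within 10 kb gave 5 calls for proNeu1 against cMoP and 6 for proNeu2 against cMoP (42.4% and 52.6% of all tested regions). That set also holds regions linked to other genes. The 21 tested regions inside the interval gave 2 calls for GMP-MoP against proNeu1 and 11 for GMP-MoP against proNeu2. They gave 8 for proNeu1 against cMoP and 12 for proNeu2 against cMoP. Over all tested regions 24.1%, 39.2%, 42.4% and 52.6% were called in these comparisons. Asking also for a fold of at least 2 left 0 of the member regions between GMP-MoP and proNeu1. The causes of these moves were not tested, except that a group of 1 library lowers the filter, so that more regions are tested.

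Leaving out 1 library left 1 library in its group and lowered the filter. Between 50983 and 52818 regions were then tested, against 47506 in the main test. Counts of calls in these fits are therefore not set beside the main counts, and examples of the change in size are given instead. Without GMP-MoP replicate 1, Ms4a3 region 2 had a log2 fold change of -0.53 in GMP-MoP over proNeu1, against -0.77. Without proNeu1 replicate 2, summed Ms4a1 fell to 1.50 in that comparison, against 1.68, while summed Ms4a4c rose to 1.17, against 0.93. Without cMoP replicate 2, summed Ms4a6c had a log2 fold change of -0.52 in proNeu1 over cMoP, against -0.76. The labels state no pairing of libraries by replicate number. Correlations of deviations lay between -0.01 and 0.08, which cannot show whether libraries of the same number share an origin. A replicate block left the counts at 0, 1 and 4 regions for GMP-MoP against cMoP, proNeu1 and proNeu2. With it they were 3, 3 and 0 for proNeu1 against cMoP, proNeu2 against cMoP and proNeu2 against proNeu1. The filter on low counts kept 8 regions out of the main test, and the part of sequencing depth in this was not tested. Without the filter, 4 of the 8 were called in at least 1 comparison.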
